A study of Mus musculus with 8 samples.

Results

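The type I interferon response was followed through 33 genes in bulk RNA-seq of isolated mouse Kupffer cells, the macrophages that reside in the liver sinusoids. The set was chosen by gene symbol and holds Ifnb1, which encodes interferon beta, the 2 chains of its receptor and 30 genes that sense viral nucleic acid, carry the receptor's signal or are induced by it. All 33 had values above 0, out of 32903 genes with a summed value, and all 33 were among the 15629 genes that reached 1 TPM in at least 3 libraries and were tested. TPM, the share of all transcripts that a gene or transcript makes up, is an abundance corrected for transcript length and scaled to the total of the library, so levels can be compared between genes, but the depth behind a value is unknown.

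The 8 libraries were made from wild-type mice. The naive group held 5 libraries from untreated mice, numbered 1 to 5. The CCl4 group held 3 libraries from mice dosed with carbon tetrachloride, a toxin that injures hepatocytes and scars the liver, at 0.75 mL/kg in corn oil, 3 times a week for 8 weeks. No oil-only group, sex, age or strain is given in the sources used here. The CCl4 libraries carry the numbers 1, 2-4 and 3, and whether 2-4 is a pool of animals is not stated. Nothing in the labels ties each library to an animal of its own, and the p-values therefore rest on library-to-library spread that may be technical.

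Interferon beta is made when sensors of foreign or misplaced nucleic acid, or Toll-like receptors, activate interferon regulatory factors and NF-kappaB at its promoter. The secreted protein binds a receptor of the chains IFNAR1 and IFNAR2, and the kinases JAK1 and TYK2 then activate a transcription factor complex, which includes STAT2 and IRF9, that switches on interferon-stimulated genes. These genes encode antiviral proteins, further sensors that amplify the response and brakes such as USP18. In the liver, Kupffer cells, recruited macrophages, dendritic cells and sinusoidal endothelium can all make or answer type I interferon.

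The preparations differed in cellular content beyond the interferon genes. All 8 Kupffer cell markers examined were lower in the CCl4 group, with a summed level of 2570 to 5196 TPM in naive and 264 to 347 TPM in CCl4 libraries, and the Kupffer cell lectin Clec4f had group means of 1397 TPM and 77.7 TPM. All 8 sinusoidal endothelial markers were lower too, at 4903 to 9260 TPM against 194 to 510.4 TPM. Of the 8 monocyte markers 6 were tested, 4 rose and none fell, the list's sum going from between 120.5 and 254 TPM to between 779 and 1107 TPM, with 253.8 TPM in naive library 5, the naive library that stood nearest to the CCl4 libraries. No marker of these 3 lists was at 0 in every library. In bulk RNA a change in the share of a cell type and a change in RNA per cell cannot be told apart, and the part of these shifts in the interferon results was not tested.

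Promoter sequence was not used in choosing the members. They were named as genes of the interferon response, however, so sharing a motif of that response is not independent of the choice. The RefSeq table of GRCm38.p6 had a promoter for 24 of the 33 members. Within the 250 bases before the annotated start, 10 of the 24 (41.7%) held GAAANNGAA on either strand, the core of the interferon-stimulated response element that IRF9 and other IRF factors bind, against 7.13% of all 32851 promoters and 8.18% of the 27025 genes that have one. The motif was present in 1 of 3 members with a promoter that rose in the CCl4 group (Oas1a), in 3 of 8 that fell (Ifit3, Rsad2 and Bst2) and in 6 of 13 that were not called (Stat2, Ifih1, Ifit1, Oas3, Isg15 and Trim25), so it was found among members of either direction. The NF-kappaB motif GGANNTTCC lay in 4 of the 24 (Ifnb1, Ifit2, Ifitm3 and Isg15; 3.59% of all promoters and 4.12% of genes), and the gamma-activated site TTCCNGGAA in 3 (Ifit2, Bst2 and Ifnar2; 0.913% and 1.09%). In Bst2 the gamma-activated site overlaps the GAAANNGAA match and is palindromic, so it was found on both strands. No other motifs of different kinds overlapped in the stretches shown. A match is a description of letters, not of binding.

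Stretches of 80 bases are shown for the ligand and for 5 interferon-stimulated members, 1 that rose, 2 that fell and 2 that were not called, written 5′ to 3′ on the gene's strand with motif matches in capitals. None overlaps an exon of the GENCODE M21 annotation of the same build, although the RefSeq table ends the span of Oas1a at 120907544, within the stretch shown and its motif, so a start further upstream than the one used is annotated for that gene. In Ifnb1 the capitals mark GGANNTTCC, in Isg15 they mark GAAANNGAA in 3 overlapping copies and, further on, GGANNTTCC on the opposite strand, and in the others they mark GAAANNGAA or its reverse complement, the gamma-activated site of Bst2 being left in lower case outside that overlap.
Ifnb1 (chr4:88522885-88522964, minus strand): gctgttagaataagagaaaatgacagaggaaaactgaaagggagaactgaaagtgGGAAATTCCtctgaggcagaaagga
Oas1a (chr5:120907526-120907605, minus strand): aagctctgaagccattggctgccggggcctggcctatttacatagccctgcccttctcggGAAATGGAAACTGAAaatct
Bst2 (chr8:71537553-71537632, minus strand): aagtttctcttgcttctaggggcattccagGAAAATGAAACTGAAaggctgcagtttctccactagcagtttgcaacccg
Rsad2 (chr12:26456523-26456602, minus strand): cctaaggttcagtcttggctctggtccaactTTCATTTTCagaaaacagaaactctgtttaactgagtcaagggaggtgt
Isg15 (chr4:156200849-156200928, minus strand): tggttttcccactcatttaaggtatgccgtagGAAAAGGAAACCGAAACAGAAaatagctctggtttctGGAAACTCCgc
Ifit1 (chr19:34640749-34640828, plus strand): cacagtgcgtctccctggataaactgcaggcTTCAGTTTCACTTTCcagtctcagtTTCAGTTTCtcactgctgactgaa

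The comparison asked how these genes differed between Kupffer cell preparations from CCl4-treated and naive mice. Ifnb1 was many times higher in the CCl4 group. Among the 30 members other than the ligand and the receptor chains, 4 rose and 8 fell, near the 15.3% and 22.5% of all tested genes that did. Of all 33, 6 rose (Ifnb1, Mx1, Oas2, Ifnar1, Oas1a and Usp18), 8 fell (Ifi44, Ifit2, Bst2, Irf7, Rsad2, Cmpk2, Ifit3 and Ifitm3) and 19 were not called. Tests were made by limma on log2(TPM + 1), with p-values adjusted over all 15629 genes and called under 0.05. The background was 37.8% of tested genes called in either direction, 15.3% called higher and 22.5% called lower, so the members' counts, 6 and 8 of 33, are near the background. Quantile normalization shifted the median of all genes by 0.17 on the log2 scale and turned the split of all calls from 2393 higher and 3513 lower to 4011 and 3086, while 7 members were higher and 8 lower. The median log2 fold change of the members was -0.04, against -0.06 over all tested genes. The groups did not overlap for 12 members, 5 higher and 7 lower, against 16.3% and 20.6% of tested genes.

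The number of members called lower moved with single libraries, as did that of all genes. Without CCl4 library 3 the count was 4, with Irf7, Ifit3, Rsad2 and Cmpk2 no longer called, and 5 were higher, while the count of all tested genes called lower went from 3513 to 2580. Without naive library 5 the members' count was 11, with 6 higher, and the count of all genes called lower was 4170. A fit with the replicate number as a block, which rests on libraries 1 and 3 of each group and keeps 1 residual degree of freedom per gene, called 3 higher and 7 lower.

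**Figure D1:**
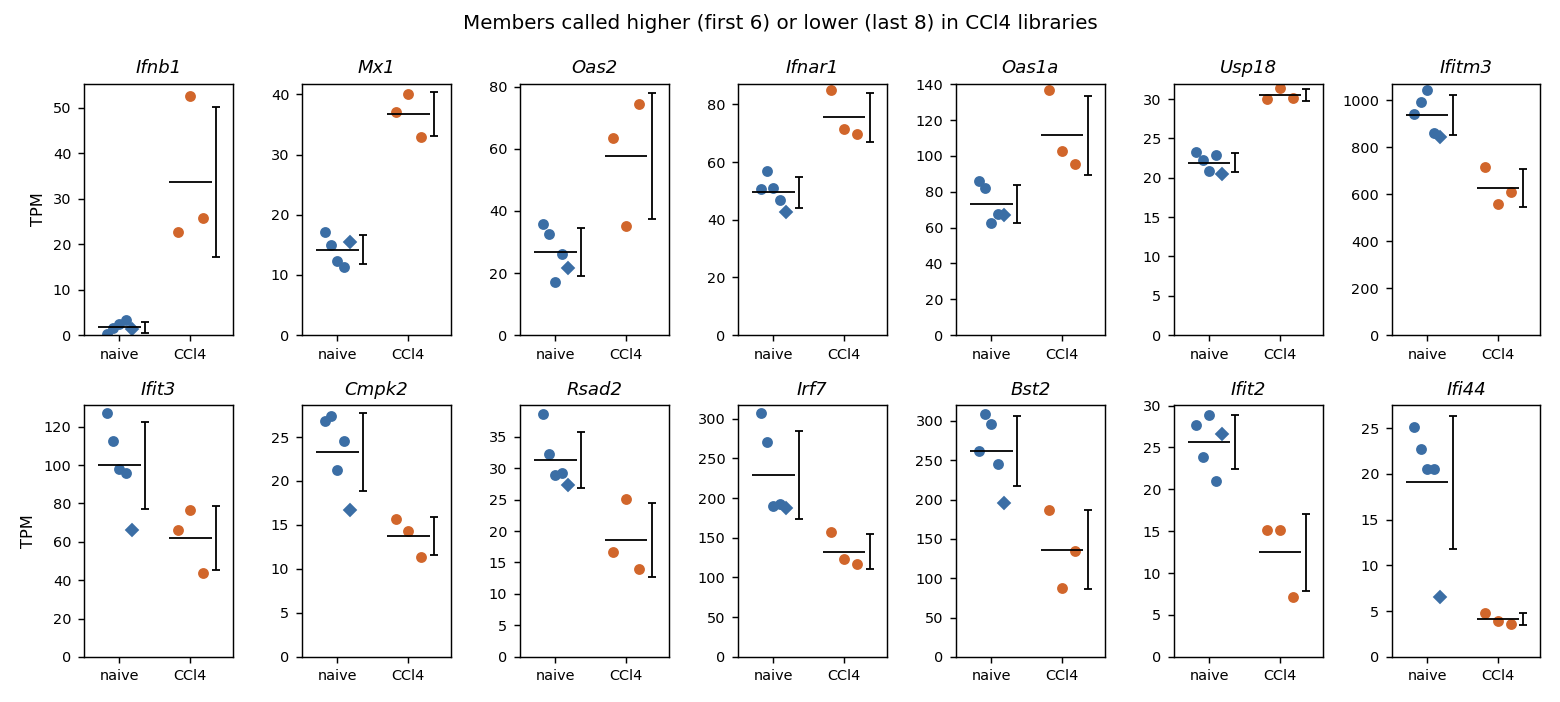
TPM of the 14 called members in each library, on axes from 0. Circles are libraries, the diamond is naive library 5, horizontal lines are group means and bars to their right are SD (n = 5 naive, n = 3 CCl4). Ifnb1 lies between 22.6 and 52.7 TPM in the CCl4 libraries and at or under 3.38 TPM in the naive ones, and the groups overlap for Oas2 and Ifit3 only.

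Ifnb1 (chromosome 4, 88522025 to 88522794, on GRCm38) is a gene of 1 exon and 182 codons in the GENCODE model, and it is scarcely transcribed in resting cells. Its level was 0.196, 1.47, 2.45, 3.38 and 1.25 TPM in naive libraries 1 to 5, and 22.6, 52.7 and 25.8 TPM in CCl4 libraries 1, 2-4 and 3. Every CCl4 library lay above every naive one, and library 2-4 was highest. The means were 1.75 ± 1.21 TPM (SD, n = 5) and 33.7 ± 16.5 TPM (SD, n = 3), a ratio of 19.3. The rise was 3.69 after taking log2(TPM + 1), a transform that shrinks the fold of a gene this low (SE 0.403, limma adjusted p = 4.55e-05). Here 10 of the tested genes had a larger log2 fold change. Immediate early and dissociation stress genes, which respond within minutes to handling of cells, were higher in the same libraries. Of 13 such genes 11 rose and none fell, where 15.3% of all tested genes rose and 22.5% fell. Their summed level was 2100 to 3004 TPM in naive and 4293 to 6499 TPM in CCl4 libraries. Their part in the Ifnb1 result was not tested.

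Most other interferon genes were near 0 TPM, Ifnk and Ifng being the 2 of 20 that were tested. None of the 14 Ifna genes, the interferon alpha family, reached 1 TPM in 3 libraries, so none was tested. Their summed level was at most 1.75 TPM in a naive library, and 2.33, 11.3 and 4.79 TPM in CCl4 libraries 1, 2-4 and 3, so the library with most Ifnb1 also had most Ifna. Ifna2 was listed at 0.904, 4.97 and 0.927 TPM in these libraries, and at 0 in 4 of the 5 naive libraries. These genes are close copies of each other, and the sharing of reads among them is uncertain. Ifnk, interferon kappa, stood at 0.278 to 1.83 TPM in naive libraries and at 1.18, 5.88 and 2.04 TPM in the CCl4 ones, an increase of 1.12 (SE 0.371, limma adjusted p = 0.0353) in which the groups overlapped. Only library 5 of the naive group reached 1 TPM, so Ifnk passed the filter through the CCl4 libraries. Its call therefore depends on the group where it was high. Ifng, the type II interferon of T and NK cells, was at 6.14 to 7.78 TPM in naive libraries and at 1.94, 9.03 and 1.62 TPM in CCl4 libraries 1, 2-4 and 3, and was not called (adjusted p = 0.0775). Ifnl2 and Ifnl3, the type III genes, were at 0 in every naive library and under 1 TPM in the CCl4 ones.

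Of the 2 receptor chains Ifnar1 rose and Ifnar2 was not called, and the difference between them was not tested. Ifnar1, the signalling chain that binds TYK2, was at 50.6, 56.9, 50.8, 46.7 and 42.7 TPM in naive libraries 1 to 5 and at 85.1, 71.5 and 69.8 TPM in CCl4 libraries 1, 2-4 and 3. The groups did not overlap, and Ifnar1 rose by 0.60 (SE 0.136, limma adjusted p = 0.00542). With the replicate block its log2 fold change was 0.59 and its adjusted p = 0.118. Ifnar2, the high-affinity chain that binds JAK1, was at 96.1, 119, 82.9, 86.0 and 78.1 TPM in naive libraries and at 125, 65.3 and 90.6 TPM in CCl4 libraries. The CCl4 values lay on both sides of the naive range. The log2 fold change was -0.01 with a 95% interval of -0.48 to 0.45, and it was above 0 with median-of-ratios rescaling (0.06) and quantile normalization (0.06).

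Mouse Ifnar2 is known to yield a soluble receptor by alternative splicing, beside the form that spans the membrane. The deposited transcripts allowed the forms to be read apart, although reads from shared exons are divided by estimation. The curated transcript with 248 codons in the matching GENCODE model, called the short form here, held 74.1% to 87.9% of Ifnar2 TPM in naive libraries and 76.9%, 65.4% and 80.0% in CCl4 libraries 1, 2-4 and 3. The curated transcript with 513 codons, called the long form here, held 0.791%, 16.0% and 6.44% in the CCl4 libraries and at most 6.74% in a naive one. The long form was at 1.28, 3.83, near 0, 2.35 and 5.26 TPM in naive libraries 1 to 5, and at 0.991, 10.4 and 5.83 TPM in CCl4 libraries 1, 2-4 and 3. Its log2 fold change was 0.86 with a 95% interval of -0.74 to 2.46 (limma adjusted p = 0.455 over all transcripts), so no difference was detectable. The remainder belonged to a predicted transcript with no model in the annotation used.

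**Figure D2:**
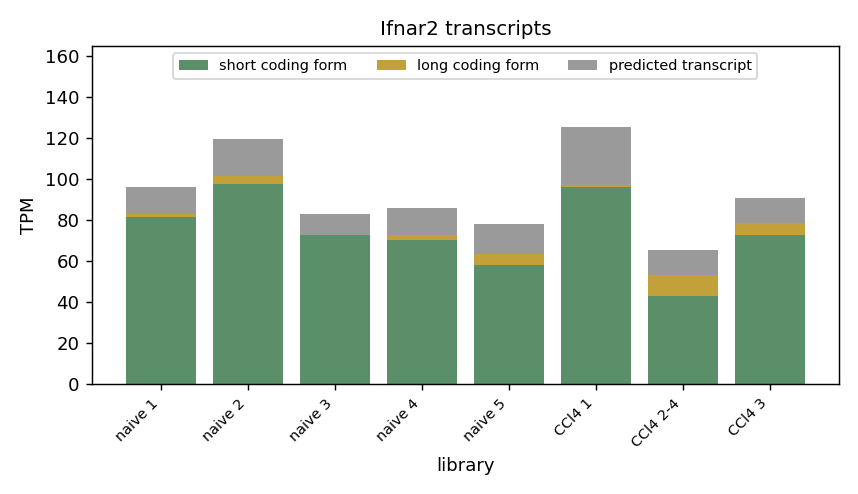
Stacked TPM of the 3 Ifnar2 transcripts in each library. The short coding form (green) makes up 65.4% or more of the bar in all 8 libraries, and the long form (yellow) is largest in CCl4 library 2-4, at 10.4 TPM.

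Of the 3 signalling factors among the members, 1 fell, where 22.5% of all tested genes did. Irf7, the interferon regulatory factor that drives the later wave of interferon alpha, was at 307, 270.4, 189.7, 193 and 187 TPM in naive libraries 1 to 5 and at 158, 124 and 117 TPM in CCl4 libraries 1, 2-4 and 3. All CCl4 values were below all naive values, naive libraries 1 and 2 being the highest. Irf7 fell by 0.77 (SE 0.199, limma adjusted p = 0.0112), and without CCl4 library 3 its adjusted p was 0.0575. Irf9, the DNA-binding subunit of the complex that holds STAT2, was at 65.5, 65.3, 72.3, 60.1 and 54.4 TPM against 77.6, 65.9 and 69.4 TPM. These ranges overlapped, and the 95% interval of the log2 fold change ran from -0.13 to 0.45. Stat2 had a mean of 45.2 ± 5.28 TPM in the naive group and of 50.8 ± 5.15 TPM in the CCl4 group, with an interval of -0.14 to 0.48.

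None of the 5 nucleic acid sensors was called, where 37.8% of all tested genes were. Ifi204, a DNA sensor of the p200 family, was at 142, 142, 114, 127 and 89.0 TPM in naive libraries and at 126, 61.1 and 73.0 TPM in CCl4 libraries. CCl4 library 1 lay inside the naive range and the other CCl4 libraries below it. The log2 fold change was -0.55 (SE 0.237, limma adjusted p = 0.0945). Ifi204 was called without naive library 5 (-0.66, adjusted p = 0.0367) and without CCl4 library 1 (-0.85, adjusted p = 0.00926). It was also called with rescaling to protein-coding genes (adjusted p = 0.0382) and with library weights (adjusted p = 0.0261). Of its 2 transcripts a predicted one fell from 20.9 ± 6.84 TPM (SD, n = 5) to 3.29 ± 0.797 TPM (SD, n = 3), a log2 fold change of -2.30 (limma adjusted p = 0.00127 over all transcripts). The curated one was at 102 ± 19.4 and 83.4 ± 34.2 TPM and was not called (limma adjusted p = 0.403). Ddx58 (RIG-I) and Ifih1 (MDA5), helicases that detect viral RNA, had log2 fold changes of -0.21 and -0.04, and Dhx58 (LGP2), their regulator, and Zbp1, which binds Z-form nucleic acid, 0.30 and 0.42. Each of these 4 had CCl4 library 1 as its highest CCl4 value, 60.7 TPM for Zbp1 against 28.2 and 39.2 TPM in the other CCl4 libraries.

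The 2'-5'-oligoadenylate synthetases, which sense double-stranded RNA and activate RNase L, and their enzymatically inactive or divergent relatives lie in clusters on chromosome 5. Oas2 was at 35.8, 32.7, 17.2, 26.2 and 21.7 TPM in naive libraries and at 63.4, 35.2 and 74.6 TPM in CCl4 libraries 1, 2-4 and 3, library 2-4 falling within the naive range. It rose by 1.06 (SE 0.280, limma adjusted p = 0.0121), and without CCl4 library 3 by 0.85 with an adjusted p of 0.0692. Oas1a was at 86.2, 82.2, 62.8, 67.6 and 66.8 TPM against 137, 103 and 95.2 TPM, with no overlap. It rose by 0.60 (SE 0.163, adjusted p = 0.0147), a call that ended without CCl4 library 1 (0.44, adjusted p = 0.0679) and with the replicate block (0.63, adjusted p = 0.094). Of the 3 listed Oas1a transcripts only the largest, a predicted non-coding one, was called. It went from 41.1 ± 5.37 TPM (SD, n = 5) to 61.7 ± 8.41 TPM (SD, n = 3; limma adjusted p = 0.0269 over all transcripts). A predicted coding one averaged 27.0 and 43.1 TPM (adjusted p = 0.0985), and the curated coding one 5.05 and 6.75 TPM (adjusted p = 0.559). Oas1a shares sequence with the other Oas1 copies, so its reads may be split among them. Oas3, their neighbour, averaged 23.7 ± 6.92 and 34.1 ± 7.88 TPM and was not called (adjusted p = 0.111). The synthetase-like genes Oasl1 and Oasl2 had log2 fold changes of -0.40 and 0.35, and neither was called.

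The IFIT proteins bind viral RNA and block its translation, and their genes form a cluster on chromosome 19. Ifit2 was at 27.7, 23.9, 28.9, 21.0 and 26.6 TPM in naive libraries and at 15.2, 15.1 and 7.16 TPM in CCl4 libraries 1, 2-4 and 3. The groups did not overlap, and Ifit2 fell by 1.04 (SE 0.229, limma adjusted p = 0.00446). Ifit3 was at 127, 113, 98.1, 95.8 and 66.1 TPM against 66.1, 76.4 and 43.7 TPM, naive library 5 lying among the CCl4 values. Ifit3 fell by 0.68 (SE 0.231, adjusted p = 0.0383), and the call was lost without any of naive libraries 1 to 4 or CCl4 libraries 1 and 3 and with no filter on low genes, the adjusted p reaching 0.182 without CCl4 library 3. Its near copy Ifit3b, which can share its reads, was at 13.5 to 29.9 TPM in naive and 9.23 to 14.0 TPM in CCl4 libraries and fell by 1.05. Ifit1 averaged 11.2 ± 2.56 and 10.4 ± 1.65 TPM, with an interval of -0.55 to 0.38 for the log2 fold change.

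Among the genes whose products block virus entry, replication or release, 1 of 7 rose and 4 fell, where 15.3% and 22.5% of all tested genes did. Mx1, a dynamin-like GTPase, was at 17.1, 15.0, 12.3, 11.2 and 15.4 TPM in naive libraries and at 37.1, 40.1 and 32.9 TPM in CCl4 libraries 1, 2-4 and 3. Its CCl4 libraries lay close together and far above the naive range, and Mx1 rose by 1.32 (SE 0.163, limma adjusted p = 0.000105). Its neighbour Mx2 averaged 15.3 ± 2.13 and 19.1 ± 3.18 TPM and was not called (adjusted p = 0.167). RefSeq classes both as transcribed pseudogenes in the C57BL/6J reference, so the values are of transcripts that need not yield a working protein, and the strain of these mice is not given in the sources used here.

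Bst2, tetherin, which holds budding virus at the cell surface, was at 261, 309, 296, 245 and 196 TPM in naive libraries and at 187, 87.7 and 134 TPM in CCl4 libraries 1, 2-4 and 3. The groups were separated by the gap between naive library 5 and CCl4 library 1, and Bst2 fell by 0.98 (SE 0.235, limma adjusted p = 0.00722). Bst2 is also a marker of plasmacytoid dendritic cells, potent makers of interferon. Siglech, a more restricted marker of those cells, was low, at 1.74 to 4.26 TPM in naive and 3.75 to 4.21 TPM in CCl4 libraries. It was not called (adjusted p = 0.336). Of the 8 plasmacytoid markers examined 3 fell, Bst2 among them, and none rose, where 22.5% of all tested genes fell and 15.3% rose. Their median log2 fold change was -0.50. Their sum, which includes Bst2, was 249 to 405 TPM in naive and 151 to 242 TPM in CCl4 libraries.

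Ifitm3, a membrane protein that stops virus fusion in endosomes, was the most abundant member, at 944, 992, 1047, 860.5 and 843 TPM in naive libraries and 718, 558 and 609 TPM in CCl4 libraries. The groups did not overlap, and Ifitm3 fell by 0.58 (SE 0.150, limma adjusted p = 0.011), not called with the replicate block (adjusted p = 0.131). Rsad2 (viperin) and Cmpk2, a nucleotide kinase, are neighbours on chromosome 12 that act together in making an antiviral nucleotide. Rsad2 was at 38.7, 32.3, 28.9, 29.3 and 27.3 TPM against 16.6, 25.1 and 13.9 TPM, and fell by 0.75 (SE 0.194, adjusted p = 0.0107). Cmpk2 was at 26.8, 27.4, 21.2, 24.5 and 16.7 TPM against 15.6, 14.3 and 11.4 TPM, and fell by 0.71 (SE 0.186, adjusted p = 0.0118). Neither overlapped between groups, and neither was called without CCl4 library 3 (adjusted p = 0.0578 and 0.0608). Rtp4, a chaperone of membrane receptors that interferon induces, was at 79.9, 80.4, 68.5, 67.2 and 48.7 TPM against 76.6, 48.4 and 51.6 TPM, with an interval of -0.68 to 0.21.

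**Figure D3:**
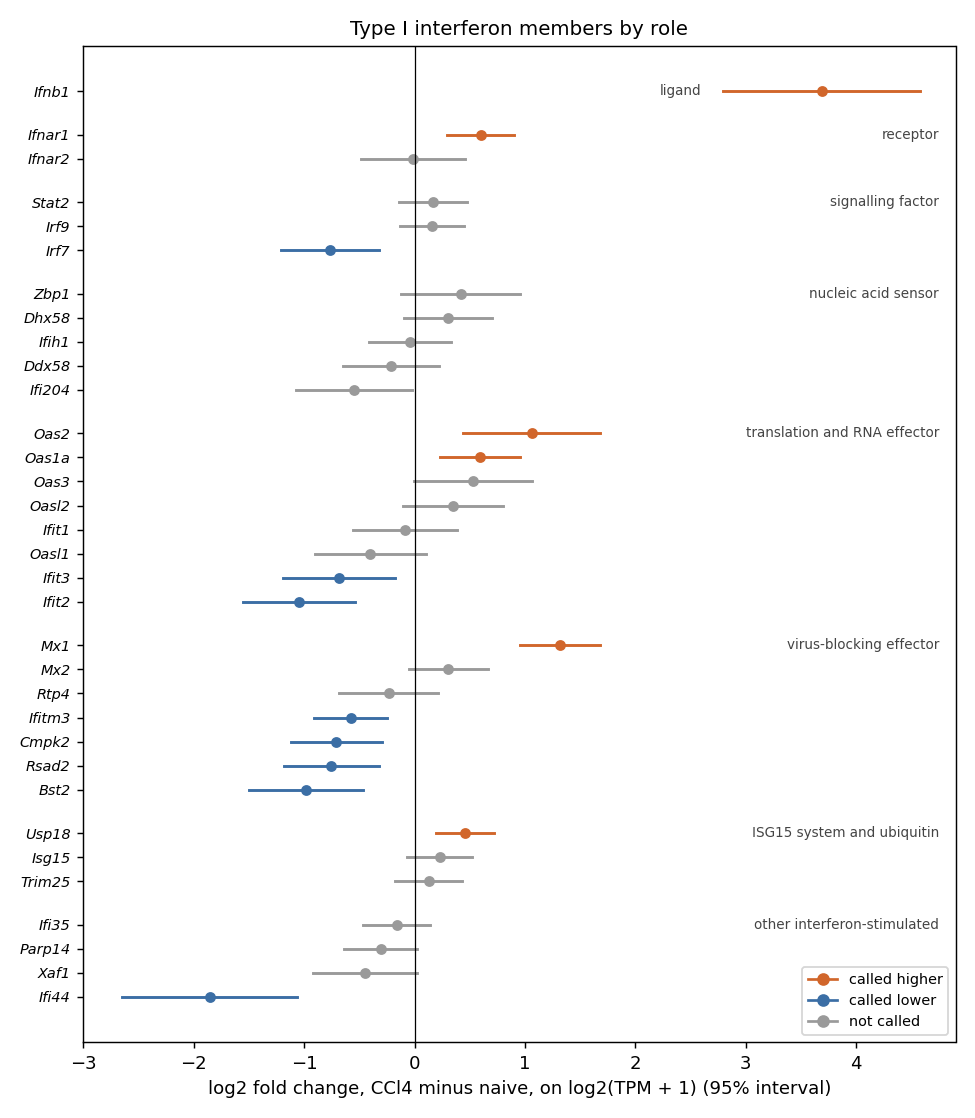
Log2 fold change of each of the 33 members with its 95% interval from limma, grouped by role. Orange marks 6 members called higher, blue 8 called lower and grey 19 not called. Ifnb1 lies at 3.69, apart from the other members, which range from -1.85 (Ifi44) to 1.32 (Mx1).

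ISG15 is a ubiquitin-like protein that interferon induces, USP18 removes it from its targets and also blocks signalling at IFNAR2, and TRIM25 is a ligase that activates RIG-I. Usp18 was at 23.2, 22.2, 20.8, 22.8 and 20.4 TPM in naive libraries and at 29.9, 31.4 and 30.1 TPM in CCl4 libraries. The groups did not overlap, and Usp18 rose by 0.46 (SE 0.119, limma adjusted p = 0.011). The replicate block gave 0.43 with an adjusted p of 0.304. Isg15 averaged 45.5 ± 4.51 and 53.4 ± 5.80 TPM, with an interval of -0.07 to 0.52. Trim25 was at 68.6, 73.4, 61.1, 58.5 and 57.3 TPM against 75.2, 61.0 and 73.3 TPM, with an interval of -0.17 to 0.43.

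Ifi44, an interferon-induced protein that restrains cell growth and virus replication, had the steepest fall of the members. It was at 25.1, 22.7, 20.5, 20.6 and 6.51 TPM in naive libraries and at 4.85, 3.94 and 3.63 TPM in CCl4 libraries. Naive library 5 lay near the CCl4 values and far from the other naive libraries. Ifi44 fell by 1.85 (SE 0.358, limma adjusted p = 0.00206), and without naive library 5 by 2.18. Parp14, a mono-ADP-ribosyltransferase, was at 82.3, 78.8, 74.6, 70.5 and 55.6 TPM against 61.7, 57.4 and 54.3 TPM. Again naive library 5 sat among the CCl4 values, and Parp14, at a log2 fold change of -0.31 (adjusted p = 0.128), was called without that library (-0.40, adjusted p = 0.0242). It was also called with rescaling to protein-coding genes (adjusted p = 0.0292) and with library weights (adjusted p = 0.0413). Xaf1, which favours apoptosis, was at -0.44 (adjusted p = 0.128), and was called at -0.55 without naive library 5 (adjusted p = 0.0459). Ifi35 was at -0.16 (adjusted p = 0.388).

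The members' highest and lowest values fell unevenly over the libraries of a group. The same counts were not made over all tested genes, so those below do not set the members apart from other genes. Among naive libraries, library 1 held the highest value for 17 of 33 members and library 5 the lowest for 21. For 7 of the 8 members that fell in the CCl4 group, every one but Ifit2, naive library 5 was the lowest naive library. The matching share over all genes that fell was not counted. Without naive library 5 the count of all genes called lower went from 3513 to 4170. That library also had the smallest endothelial sum of the naive libraries, 4903 TPM, and the largest monocyte sum, 253.8 TPM, and the part of either was not tested. Among CCl4 libraries, library 1 was highest for 21 of the 30 members other than ligand and receptors, library 2-4 for 8 and library 3 for 1. The library with the most Ifnb1, 2-4, was the lowest CCl4 library for 15 of the 33 members, as was library 3 for 15 others.

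**Figure D4:**
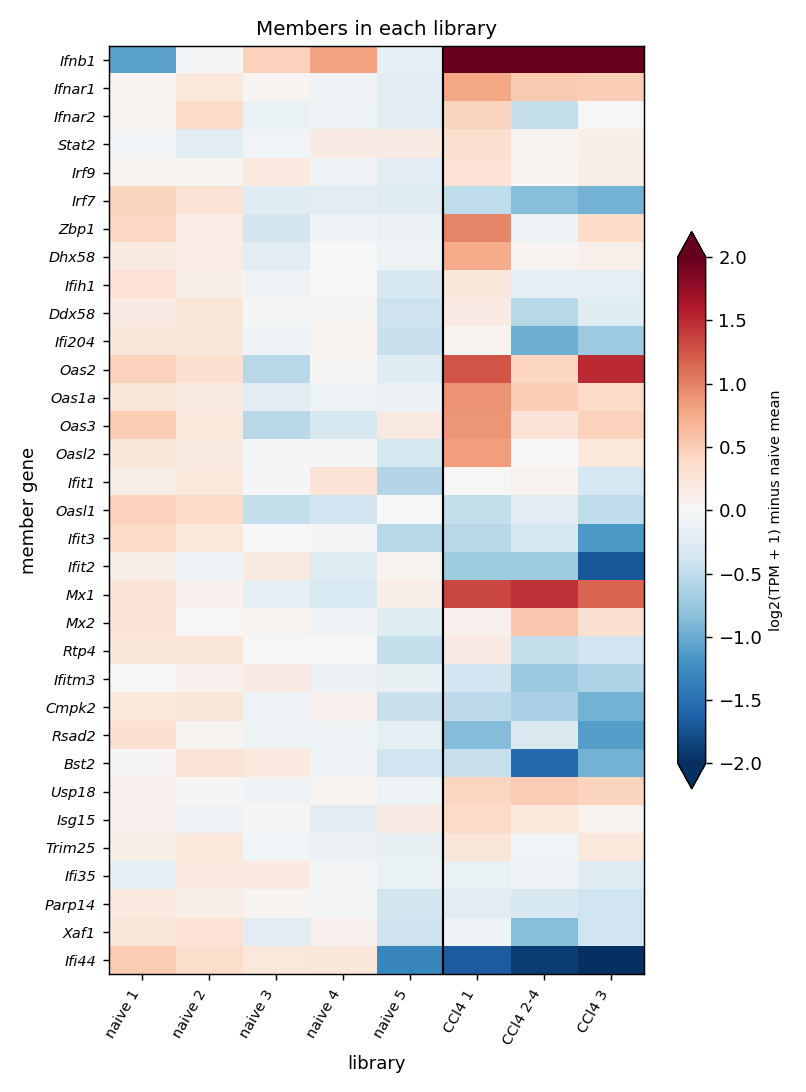
Level of each member in each library as log2(TPM + 1) minus the mean of the naive libraries, from blue (lower) to red (higher), with colours saturating at 2 in either direction. The vertical line divides 5 naive from 3 CCl4 libraries. Ifnb1 is saturated red in all CCl4 libraries, Ifi44 is blue in them and in naive library 5, and CCl4 library 1 is redder than libraries 2-4 and 3 for most members.

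Several sensors, adaptors and factors that lead to Ifnb1 transcription rose in the CCl4 group. Of 22 such genes 9 rose, 2 fell and 11 were not called, where 15.3% of all tested genes rose and 22.5% fell. The median log2 fold change was 0.45 (-0.06 for all tested genes). Tlr9, the endosomal receptor for unmethylated DNA, went from 11.1 ± 3.24 TPM (SD, n = 5) to 42.7 ± 7.28 TPM (SD, n = 3), a rise of 1.88 (limma adjusted p = 5.73e-05). Irf5, a regulatory factor activated downstream of Toll-like receptors, was at 51.2 to 71.4 TPM in naive libraries 1 to 4, at 125 TPM in naive library 5 and at 236 to 240.1 TPM in the CCl4 libraries, a rise of 1.77. Ticam2 (TRAM), an adaptor of TLR4, rose by 1.79, and Nfkb1 by 0.83. Tlr3, the endosomal receptor for double-stranded RNA, and Irf1 were the 2 that fell, by 1.44 and 0.52. Tlr3 was named after its value was seen, and its groups overlapped. The summed level of the monocyte markers was also higher in the CCl4 libraries, and its part in the rises of this list was not tested.

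Of 8 genes of interferon receptor signalling 4 rose and 1 fell, where 15.3% of all tested genes rose and 22.5% fell. The fall was in Jak1, the kinase bound to IFNAR2, which was at 161 to 256 TPM in naive and 46.1 to 58.9 TPM in CCl4 libraries, a change of -1.92 (SE 0.161, limma adjusted p = 7.96e-06). Tyk2, the kinase bound to IFNAR1, rose by 0.63 (SE 0.117, adjusted p = 0.00156) with no overlap, from 36.3 ± 2.41 TPM to 56.8 ± 1.43 TPM. The interferon gamma receptor chains Ifngr1 and Ifngr2 rose by 0.96 and 0.61. Ifnlr1, a receptor chain of type III interferon, was also called higher, at 0.257 to 0.795 TPM in naive and 1.09 to 6.26 TPM in CCl4 libraries. It passed the filter of 1 TPM only through the CCl4 libraries, so its call depends on the group where it was high.

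Of 17 brakes on interferon or its induction 5 rose, 2 fell and 10 were not called, where 15.3% of all tested genes rose and 22.5% fell. Socs1, which inhibits JAK kinases, fell from 25.2 ± 4.03 to 8.37 ± 2.06 TPM, a change of -1.50 (SE 0.188, limma adjusted p = 0.00012). Tnfaip3 (A20), a brake on NF-kappaB, rose by 1.59, Ptpn6 (SHP-1), a phosphatase of leukocyte receptors, by 1.28 and Trex1, which degrades cytosolic DNA, by 0.81. Among 7 other interferon regulatory factors Irf5 and Irf4 rose, Irf4 from 2.98 ± 1.10 to 11.7 ± 4.57 TPM, and Irf1 fell. Irf1 and Irf5 are also on the list of sensors and adaptors. That list shares Jun, which was called higher, with the immediate early genes.

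A wider list of 65 interferon-stimulated genes outside the set also held calls in both directions: 64 were tested, 14 rose, 13 fell and 37 were not called, with a median of -0.09. These counts are near the background of 15.3% higher and 22.5% lower. Ms4a4c, a membrane protein of myeloid cells, rose by 2.37 (8.59 ± 2.06 to 48.1 ± 9.18 TPM), and Sp140, a chromatin reader of immune cells, by 1.24. Ifitm2, a relative of Ifitm3, fell by 1.83 (877 ± 209 to 246 ± 65.0 TPM), and Ifi27 by 1.30. The sinusoidal endothelial markers, which fell in the same libraries, had a median log2 fold change of -4.54, and their part in these falls was not tested.

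**Figure D5:**
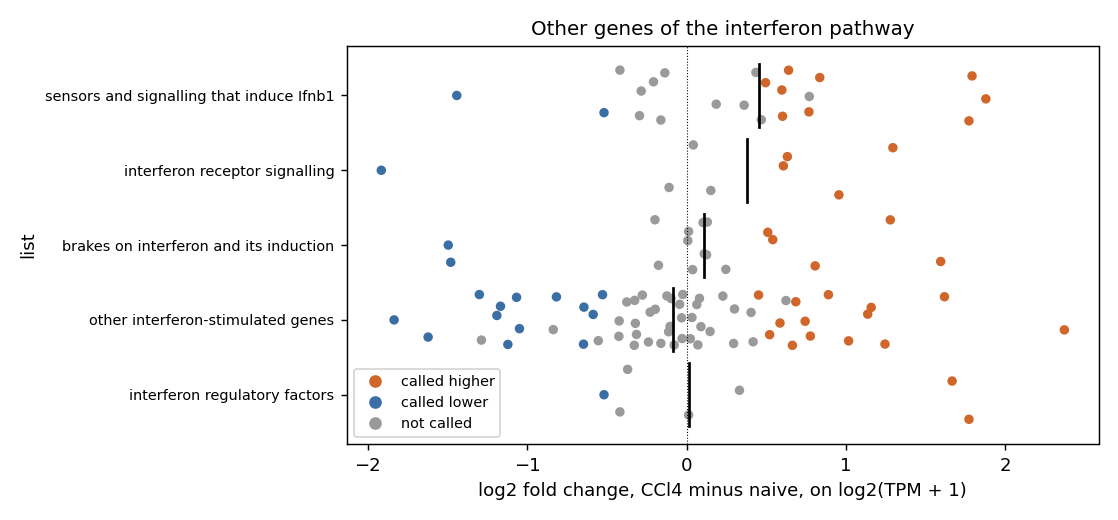
Log2 fold change (CCl4 minus naive, on log2(TPM + 1)) of each tested gene of 5 pathway lists, with list medians as black bars. Orange marks genes called higher, blue genes called lower and grey genes not called; vertical placement within a list only separates the points. Inducing genes have a median of 0.45 and the other interferon-stimulated genes a median of -0.09, with genes called on both sides of 0 in all 5 lists.

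The fit was repeated on single transcripts. The members had 68 listed transcripts, of which 60 were tested, 6 rose and 8 fell, against a background of 7.99% and 12.1% of all 29401 tested transcripts. For 15 members a single transcript was listed, so the sum is that transcript alone, and further transcripts without a matched gene could leave some sums incomplete.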

How the data were processed

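Per the file headers, each library's table lists transcripts with a TPM, a length-corrected abundance that the authors estimated from their reads. According to the submitters' processing notes the tool was kallisto (0.42.4) and the build GRCm38. Its index and options are unknown here, as is depth, so no counting interval is given. A RefSeq gene table of GRCm38.p6 gave a gene to 86722 of 107384 transcripts by accession without version, and the unmatched ones held 6.06% to 7.58% of TPM. Gene sums at 1 TPM or more in at least 3 libraries were log2-transformed after adding 1 and fitted in limma (3.58.1, under R 4.3.3) with the group as the only term, lmFit and eBayes with trend, two-sided, with Benjamini-Hochberg adjustment. Of all TPM, 27.5% to 41.3% fell on Rn7s1 and Rn7s2 (7SL RNA), so rescalings were tried, beside other pseudocounts, filters, weights, a replicate block and leaving out each library.

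The members, lists and tests were chosen with earlier results of these data known. Full values are given for Ifnb1, both receptor chains, all called members and the 6 most abundant uncalled ones, and up to 4 called genes of each pathway list are named by adjusted p. Motifs were searched on both strands.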

Additional observations from a re-analysis of the deposited data

Results flagged for a closer look

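In naive library 5, Ifi44 stood at 6.51 TPM while the other 4 naive libraries held 20.5 to 25.1 TPM. The gap to the nearest library was 0.750 of the whole range, above the 0.710 allowed for 5 samples by Dixon's test at the 95% level. The 33 members were checked in the naive group, and Ifi44 was the only one past the limit. Chance alone passes about 1 in 20 such checks, so 1 flag among 33 is no more than chance gives.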

How the results depend on the processing

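Ifnb1 was called higher under all 19 alternatives, with a log2 fold change of 2.46 to 4.48, the extremes coming from pseudocounts of 5 and 0.1 TPM. Leaving out 1 library at a time gave 5 to 6 members higher and 4 to 11 lower, the 4 without CCl4 replicate 3, where all genes called lower went from 3513 to 2580, and the 11 without naive replicate 5, where they went to 4170. Quantile normalization called 4011 genes higher over all genes. Ifnar2 was never called, and its log2 fold change was above 0 with median-of-ratios rescaling (0.064), quantile normalization (0.059), library weights (0.0013) and the replicate block (0.25), and ran from -0.25 without CCl4 replicate 1 to 0.22 without CCl4 replicate 2-4. With the replicate block 3 members were higher, Ifnar1, Oas1a, Usp18 and Ifitm3 losing their calls. Replicates sharing a number did not deviate together (correlations of 0.08 for number 1 and -0.04 for number 3). Only 2 numbers are shared, so these values cannot decide whether the numbers pair the libraries. Over the 358 values of the other 19 members named with full values, 328 kept direction and side of the threshold, 16 lost a call, 7 gained one and 7, all of Ifnar2, changed sign. Over all 33 members at most 3 changed sign under any 1 alternative, the 3 under quantile normalization. Ifit3 was called under 12 of 19 alternatives. The cause of these changes was not tested. Mx1 and Mx2 are absent from the protein-coding rescaling, and Stat2, Bst2 and Ifi44 from the match by exact version. Depth is unknown, which limits the values under 1 TPM most.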
